A study of Homo sapiens with 16 samples.

Results

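The response to silencing of CD28 was compared between 2 groups of human myeloma cell lines. MM.1s and KMS18 formed the first group, and RPMI8226 and a derivative of it overexpressing Mcl1, an inhibitor of apoptosis (the Mcl1 background), formed the other. For each background the change of a gene was its log2(FPKM + 1) with the CD28 short hairpin RNA (shRNA) minus the mean of its 2 controls, an empty pLK0.1 vector (Vec) and a shRNA against Gapdh. FPKM is the number of fragments scaled by exon length and by the size of the library. Of 16 libraries of the series 12 entered, with 1 library per background and shRNA, which makes 4 CD28 shRNA and 8 control libraries. Line-dependent responses were described among the 5827 genes, of 23459 in the table, whose mean control level was at least 5 FPKM in every background, and 5565 genes reached 5 FPKM in each control library. MM.1s, KMS18 and RPMI8226 were otherwise unmodified. The RPMI8226 backgrounds share 1 parental line, so the second group holds 1 line in 2 states and not 2 independent lines. The labels describe the cells as transfected, and the hairpin sequences, the number of hairpins per target and the interval between transfection and harvest are not stated there.

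CD28 is a costimulatory receptor best known on T cells, where it binds CD80 and CD86 on other cells and signals through PI3-kinase. Plasma cells and myeloma cells carry it too, and there it has been linked to survival. MYC is a transcription factor that binds DNA with its partner MAX at the E-box CACGTG and drives genes of ribosome production, nucleotide synthesis and glycolysis. It is often deregulated in myeloma, and it represses CDKN1A, the inhibitor of cyclin-dependent kinases known as p21, which p53 activates.

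Reads in genes numbered 3914513 to 4577443 in CD28 shRNA libraries and 4676493 to 5900955 in control libraries, and the CD28 shRNA library was the shallowest in every background. The plasma cell genes SDC1, IRF4, PRDM1, XBP1 and TNFRSF17 reached 5 FPKM in the controls of every background. SLAMF7, another plasma cell surface gene, averaged 152 and 138 FPKM in MM.1s and KMS18 controls against 1.31 and 0.547 FPKM in RPMI8226 and Mcl1 controls, and CD38 was below 5 FPKM in KMS18 controls only (3.35). Of 12 stromal markers 9 to 10 were at 0 in CD28 shRNA libraries and 8 to 11 in controls. The summed level of 12 T cell markers was 3.65 to 27.03 FPKM in CD28 shRNA libraries and 2.69 to 18.5 in controls, and within each background it was highest with CD28 shRNA. Its top gene was TRAT1 in MM.1s. In KMS18 it was CD3E, at 7.21 FPKM with CD28 shRNA against 2.13 with Vec and 2.31 with Gapdh shRNA. Of the 12 markers 5 to 7 were at 0 with CD28 shRNA and 6 to 10 in controls. The sum of 12 myeloid markers was 0.885 to 86.1 FPKM with CD28 shRNA and 0.826 to 89.6 in controls, and its top gene was CD68, a lysosomal protein, except in KMS18 with Gapdh shRNA, where it was S100A9 at 1.23 of 1.84 FPKM. The part of depth and of these markers in the results was not tested. In bulk libraries fewer cells of a kind and less RNA per cell cannot be told apart.

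The targeted genes were examined first. CD28 was at 42.7 FPKM with CD28 shRNA in MM.1s, against 65.7 with Vec and 78.4 with Gapdh shRNA. In KMS18 it was at 32.4 FPKM with CD28 shRNA, against 45.8 with Vec and 47.7 with Gapdh shRNA. In RPMI8226 the values were 56.0 FPKM with CD28 shRNA, 70.6 with Vec and 77.1 with Gapdh shRNA, and in the Mcl1 background 35.7, 52.9 and 49.7. Silencing was partial everywhere, with 59.3%, 69.4%, 75.8% and 69.6% of the mean control level left in MM.1s, KMS18, RPMI8226 and the Mcl1 background. CD28 fell in both line groups (log2 change -0.62 in MM.1s and KMS18, SE 0.09, limma adjusted p = 0.00254, and -0.45 in the RPMI8226 backgrounds, SE 0.09, adjusted p = 0.0259). The difference between the groups was -0.17 (SE 0.13, adjusted p = 0.659), and KMS18 and the Mcl1 background had the same change of -0.51. GAPDH, the target of the control shRNA, was at 629.5 FPKM with Gapdh shRNA against 1187 with Vec in MM.1s, 133 against 1241 in KMS18, 402 against 1172 in RPMI8226 and 209.5 against 985 in the Mcl1 background. With CD28 shRNA it was at 1239, 1387, 1265 and 1099.8 FPKM in the same order, close to Vec, so its change against the mean of both controls reflects the Gapdh shRNA library. How much of any line difference follows from the unequal remaining levels of CD28 or GAPDH was not tested.

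MYC separated the line groups, and since it was known to do so when they were formed its values are a description without a test. In MM.1s it was at 197 FPKM with CD28 shRNA, against 338 with Vec and 325 with Gapdh shRNA. In KMS18 it was at 210.4 FPKM, against 353 and 374 FPKM in the same controls. RPMI8226 cells had it at 377 FPKM, against 401 and 403, and in the Mcl1 background at 326, against 361 and 343. MYC was thus at 59.2% and 57.9% of the control mean in MM.1s and KMS18, and at 93.7% and 92.7% in RPMI8226 and the Mcl1 background. The changes were -0.75 and -0.78 in the first group and -0.09 and -0.11 in the second. All 4 CD28 shRNA libraries lay below both of their controls, and the groups did not overlap. Control levels of MYC were alike in the 4 backgrounds, at 325 to 403 FPKM.

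**Figure D1:**
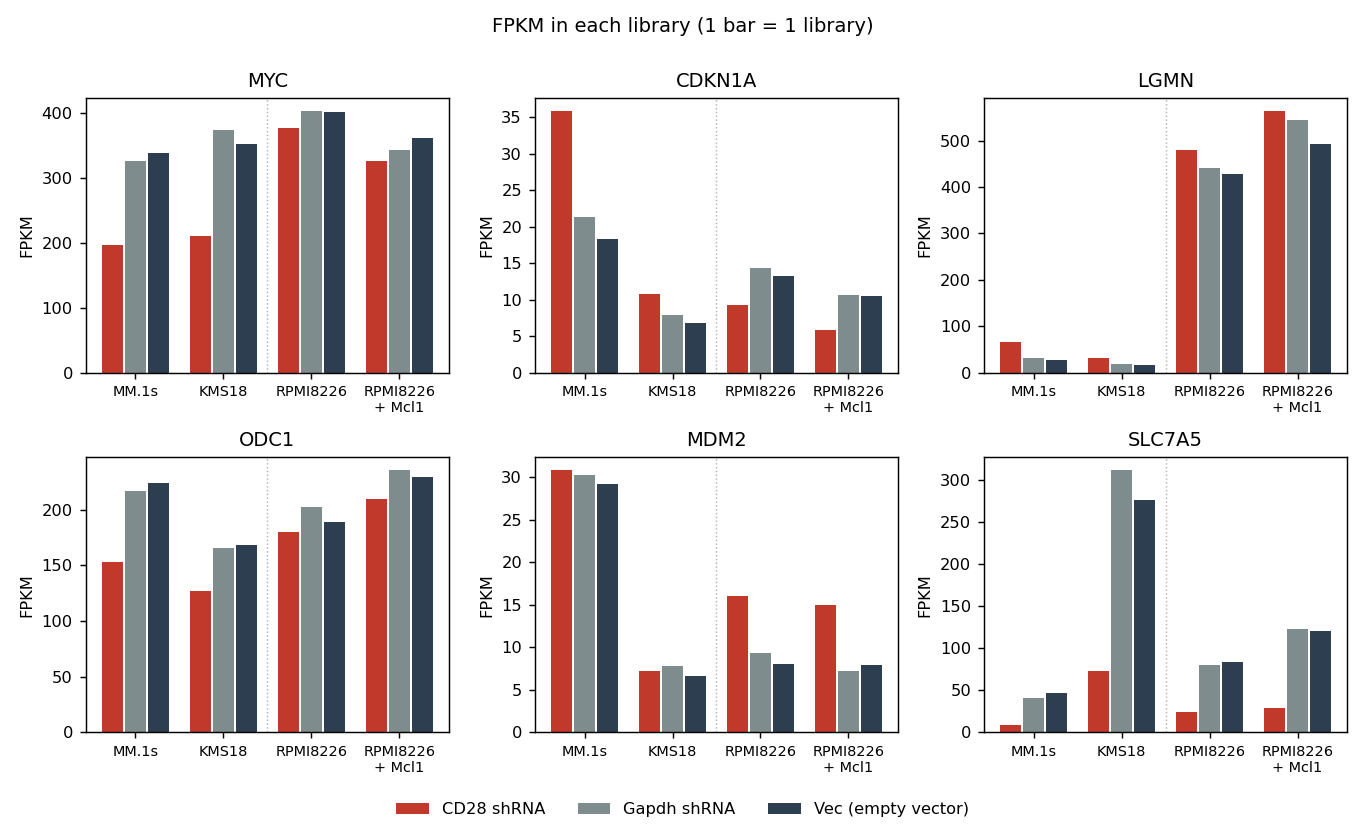
FPKM of 6 genes in each of the 12 libraries (1 bar per library, linear axes from 0), with CD28 shRNA left of Gapdh shRNA and Vec in each background and the line groups split by a dotted line. MYC is at 197 and 210.4 FPKM with CD28 shRNA in MM.1s and KMS18 and at 377 and 326 FPKM in RPMI8226 and the Mcl1 background, CDKN1A lies above its controls in the first group and below them in the second, and SLC7A5 is low with CD28 shRNA in all 4.

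CDKN1A (Entrez 1026) moved in opposite directions. In MM.1s it was at 35.9 FPKM with CD28 shRNA, against 18.3 with Vec and 21.3 with Gapdh shRNA, and in KMS18 at 10.8 FPKM, against 6.75 and 7.82. In RPMI8226 it was at 9.32 FPKM with CD28 shRNA, against 13.2 with Vec and 14.3 with Gapdh shRNA, and in the Mcl1 background at 5.83, against 10.4 and 10.6. Every CD28 shRNA library lay outside its own controls, above them in both lines of the first group and below them in both RPMI8226 backgrounds. The changes were 0.83 and 0.51 in MM.1s and KMS18 and -0.52 and -0.75 in RPMI8226 and the Mcl1 background. CDKN1A rose in the first group (0.67, SE 0.11, limma adjusted p = 0.00657), fell in the second (-0.63, SE 0.11, adjusted p = 0.0181), and the difference of 1.30 (SE 0.16, adjusted p = 0.015) passed. It rested on 68 to 436 reads per library. Of the 6 residual degrees of freedom behind these p-values, 2 come from the backgrounds of a group and the others from Vec against Gapdh shRNA. With limma on the 4 changes alone, where the spread comes only from the backgrounds of a group, its adjusted p was 0.313. The difference stayed between 1.00 and 1.46 under all 14 alternatives, but no longer passed without MM.1s (1.14, adjusted p = 0.117), without RPMI8226 (1.42, 0.227) or without the Mcl1 background (1.19, 0.344), with Vec or Gapdh shRNA as the only control, or with limma on the 4 changes alone, and its adjusted p ranged from 0.0029 to 0.491.

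MDM2, the ubiquitin ligase that degrades p53 and is itself a p53 target, had another pattern. It was at 30.8 FPKM with CD28 shRNA in MM.1s, against 29.3 with Vec and 30.2 with Gapdh shRNA, and at 7.14 in KMS18, against 6.58 and 7.82. RPMI8226 cells had it at 16.0 FPKM, against 7.99 and 9.34, and in the Mcl1 background at 15.0, against 7.88 and 7.20. MDM2 rose in the RPMI8226 backgrounds (0.86, SE 0.10, adjusted p = 0.00188), and its estimate in the first group was 0.02 (SE 0.10, adjusted p = 0.924). The difference of -0.84 (SE 0.14, adjusted p = 0.0859) did not pass here and did with voom on computed reads (-0.90, adjusted p = 0.00314). Of 14 p53 targets at 5 FPKM 3 rose in MM.1s and KMS18, namely CDKN1A, the pro-apoptotic BBC3 (0.61) and SESN1, a stress-induced sestrin, and in the RPMI8226 backgrounds MDM2 rose and CDKN1A fell. Of all 5827 genes at 5 FPKM 253 rose in the first group (4.34%), and in the second 30 rose (0.515%) and 184 fell (3.16%). The median changes of this list were 0.14, 0.16, 0.07 and 0.19 in MM.1s, KMS18, RPMI8226 and the Mcl1 background, and they overlapped between the groups.

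LGMN (Entrez 5641), which encodes the lysosomal protease legumain, was the other gene of substantial level whose response differed. It was at 64.9 FPKM with CD28 shRNA in MM.1s, against 26.7 with Vec and 31.7 with Gapdh shRNA, and at 31.0 in KMS18, against 15.5 and 17.9. In RPMI8226 it was at 479 FPKM, against 429 and 441, and in the Mcl1 background at 565, against 494 and 545. LGMN rose in the first group (0.99, SE 0.09, adjusted p = 0.000313), and its estimate in the RPMI8226 backgrounds, whose controls were far higher, was 0.13 (SE 0.09, adjusted p = 0.514). The difference was 0.86 (SE 0.13, adjusted p = 0.0454), and it missed the threshold when any 1 background was left out (0.73 to 1.00, adjusted p 0.0512 to 0.492), with either other pseudocount, without the filter on low values and under median-of-ratios scaling (0.0604).

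Over all 11351 genes tested, 10 passed for the difference between the line groups (0.0881%; limma, Benjamini-Hochberg adjusted p under 0.05). They include MYC, which was known to separate the groups and is no test result, and MAL, CACNG4, LBH and PKIA, which were at or near 0 in 1 line group and passed the filter on low values through the other, so that only 1 group had a response to measure. At an unadjusted p under 0.05 there were 1210. Among the 5827 genes at 5 FPKM the calls were MYC, CDKN1A, LGMN and SNORA63, a small nucleolar RNA that guides pseudouridine in ribosomal RNA. SNORA63 had 34 and 15 reads with CD28 shRNA in MM.1s and KMS18 but only 1 and 3 in RPMI8226 and the Mcl1 background, against 9 to 38 and 5 to 13 reads in their controls. Its difference of 1.99 (SE 0.26, adjusted p = 0.0172) therefore rests on few reads, and with voom on computed reads its adjusted p was 0.352, and it also missed the threshold when any 1 background was left out (0.0819 to 0.27). No gene passed for the difference when MM.1s or the Mcl1 background was left out (1413 and 802 at an unadjusted p under 0.05), and the 3 that passed without RPMI8226 were not among the 10.

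The other 6 called genes were below 5 FPKM in at least 1 background, and 3 of them were at 0 throughout 1 line group. MAL, a membrane raft protein, and CACNG4, a calcium channel subunit, were at 0 in all 6 MM.1s and KMS18 libraries. With CD28 shRNA MAL was at 119.8 and 45.7 FPKM in RPMI8226 and the Mcl1 background, against 145 to 283 FPKM in their controls, and CACNG4 at 9.67 and 9.07, against 21.8 to 23.7. LBH, a transcription cofactor, was at 9.75 and 80.2 FPKM with CD28 shRNA in these backgrounds, against 25.7 to 195 in their controls, and at most 0.732 FPKM in MM.1s and KMS18 libraries. With voom on computed reads the adjusted p of these 3 genes was 0.377 to 0.691. PKIA, an inhibitor of protein kinase A, was the reverse case, with 0.385 and 1.99 FPKM in MM.1s and KMS18 with CD28 shRNA, against 2.57 to 6.76 FPKM in their controls, and 0 in all RPMI8226 libraries (voom adjusted p = 0.449). FN1, fibronectin, rose in MM.1s and KMS18 (0.86, SE 0.11, adjusted p = 0.00169) to 6.33 and 1.48 FPKM, against 0.487 to 2.59 FPKM in their controls, and its estimate was -0.35 (SE 0.11, adjusted p = 0.138) in the RPMI8226 backgrounds, at 174 to 435 FPKM. The difference of FN1 (1.21, adjusted p = 0.0172) missed the threshold without MM.1s, RPMI8226 or the Mcl1 background (0.117 to 0.344), with a pseudocount of 5 FPKM (0.0862) and without the filter on low values (0.0529). OAS2, an interferon-induced enzyme that makes 2'-5' oligoadenylate, rose in the RPMI8226 backgrounds (1.45), with 0.16 in the first group (difference -1.29, SE 0.18, adjusted p = 0.0303). It was at 14.0 and 4.15 FPKM with CD28 shRNA in RPMI8226 and the Mcl1 background, against 1.07 to 3.93 FPKM in their controls. Its difference missed the threshold when any 1 background was left out (adjusted p 0.0759 to 0.373), with a pseudocount of 5 FPKM (0.109) and without the filter on low values (0.0769).

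Further genes at 5 FPKM were named by the smallest p, to fill up to 5 per direction, and did not pass. NUP43, a nuclear pore subunit, was at 3.93 and 3.72 FPKM with CD28 shRNA in MM.1s and KMS18, against 7.45 to 9.28 FPKM in their controls, and at 6.76 and 6.97 in RPMI8226 and the Mcl1 background, against 6.51 to 7.46. It fell in the first group (-1.01, SE 0.11, adjusted p = 0.000755), and the difference was -1.01 (SE 0.16, adjusted p = 0.062), which passed where only genes at 5 FPKM were tested (0.0413). TFAP4, a transcription factor known as a direct MYC target, fell in the first group (-0.44, SE 0.08, adjusted p = 0.00946), with an estimate of 0.23 in the second and a difference of -0.68 (SE 0.12, adjusted p = 0.09). ADM, the vasodilator peptide adrenomedullin, fell in the first group (-0.37), with 0.26 in the second and a difference of -0.64 (adjusted p = 0.131). ITM2C, a membrane protein, rose in the first group (0.44), with -0.12 in the second and a difference of 0.56 (adjusted p = 0.126). IFI27L1 rose there too (0.46), with -0.29 in the second group and a difference of 0.76 (adjusted p = 0.148).

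**Figure D2:**
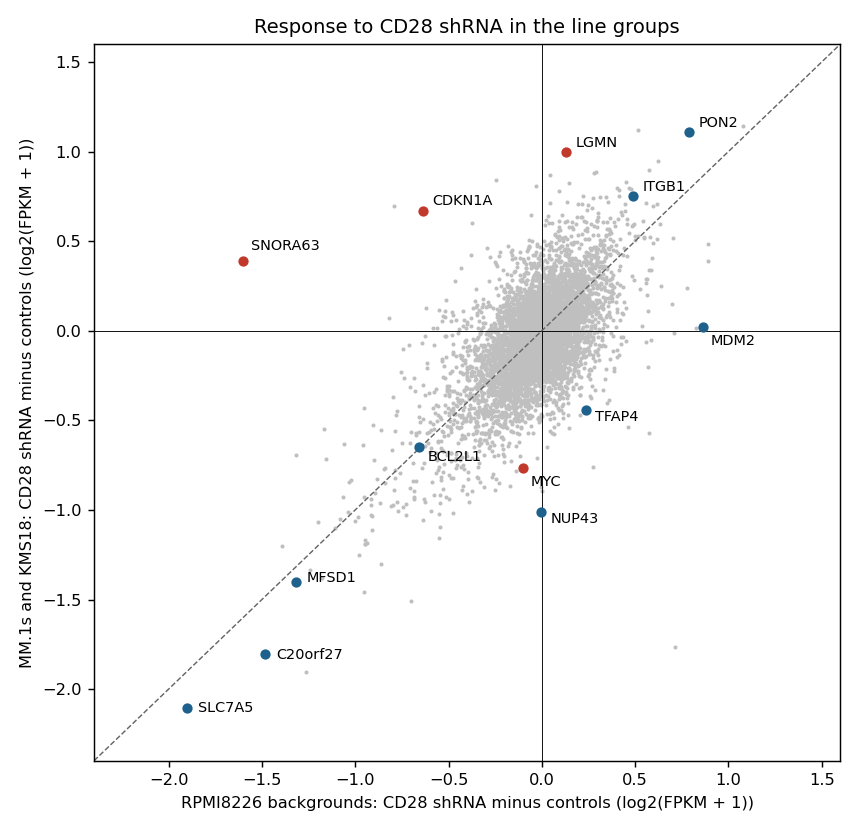
Response to CD28 shRNA in MM.1s and KMS18 (vertical axis) against the response in the RPMI8226 backgrounds (horizontal axis), both as differences of log2(FPKM + 1), for 5827 genes (1 point per gene, dashed line of equal response). Red points are the genes at 5 FPKM called for the difference (MYC, CDKN1A, LGMN and SNORA63), blue points other named genes. MYC was known to separate the groups when they were formed, so its point is a description and no test result. SLC7A5, C20orf27 and MFSD1 lie near the line at -2.11 and -1.90, -1.80 and -1.48, and -1.40 and -1.32, while MYC lies at -0.77 and -0.10.

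Known targets of MYC had median changes below 0 in all 4 backgrounds. Of 41 MYC targets and genes of ribosome biogenesis at 5 FPKM, 22 fell in MM.1s and KMS18 and 2 in the RPMI8226 backgrounds, against 597 (10.2%) and 184 (3.16%) of all 5827 genes at that level, and none rose in either. The median changes were -0.29 and -0.26 in MM.1s and KMS18 and -0.05 and -0.13 in RPMI8226 and the Mcl1 background, against -0.05, -0.03, -0.01 and -0.03 over all 5827 genes. For 28 of the 41 (68.3%) both changes of the first group lay below both of the second, which held for 1298 of 5827 genes (22.3%), and for 1 of 41 they lay above, against 984 of 5827 (16.9%). No member passed the test of the difference. The median difference was -0.20, against -0.02 over all 5827 genes, and it stayed between -0.22 and -0.18 under all 14 alternatives. Over all genes tested, 724 of 11351 fell (6.38%) and 470 rose (4.14%) in MM.1s and KMS18, and 223 fell (1.96%) and 62 rose (0.546%) in the RPMI8226 backgrounds.

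ODC1, ornithine decarboxylase and a classic MYC target, was at 153 FPKM with CD28 shRNA in MM.1s, against 224 with Vec and 217 with Gapdh shRNA, and at 127 in KMS18, against 169 and 166. RPMI8226 cells had it at 180.4 FPKM, against 189 and 202, and in the Mcl1 background at 209.6, against 230.0 and 236. It fell in the first group (-0.46, SE 0.05, adjusted p = 0.000961), with an estimate of -0.13 in the second (SE 0.05, adjusted p = 0.229). CAD, which starts pyrimidine synthesis, fell in the first group (-0.40, adjusted p = 0.0141), with 0.06 in the second (adjusted p = 0.783). The nucleolar protein NCL fell in the first group (-0.29, adjusted p = 0.00731), with -0.01 in the second, and so did GEMIN4, of the SMN complex (-0.58, adjusted p = 0.00939), with 0.07 in the second. NOLC1, a nucleolar phosphoprotein, and SRM, spermidine synthase, fell in both groups, by 0.77 and 0.66 on the log2 scale in the first and by 0.56 and 0.54 in the second. TFRC, the transferrin receptor, did not follow within the first group, with 0.25 in MM.1s and -0.54 in KMS18. Among the partners and rivals of MYC in the MAX network, MAX was at -0.36 and 0.13 in MM.1s and KMS18 and at -0.04 and 0.11 in RPMI8226 and the Mcl1 background. Leaving aside MYC, whose values are a description, no member of that list of 8 passed any test.

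The E-box CACGTG, which reads the same on both strands, was looked up in RefSeq promoter sequences of 300 bases (250 before to 50 after the start, GRCh38.p14). It stood in 47.7% of 44 promoters of the MYC target list (35 of its 41 genes matched), in 10.99% of 6842 promoters of the genes at 5 FPKM (4843 of 5827 matched) and in 7.26% of all 35116 promoters. The match is a description of these letters and not a measured site. The list holds known MYC targets, so its higher share comes from the choice of genes and is no result of these data. Stretches of 60 bases around it are shown for 6 genes of the MYC target, G1/S and glycolysis lists that fell in MM.1s and KMS18, 5′ to 3′ on the strand of the gene, with the E-box in capitals. They lie at chr2:10448013-10448072 (minus strand) for ODC1, chr12:109098098-109098157 for UNG, chr3:127598351-127598410 for MCM2, chr11:61792851-61792910 for FEN1, chr2:74834994-74835053 for HK2 and chr11:18394449-18394508 for LDHA, the last 5 on the plus strand.
ODC1: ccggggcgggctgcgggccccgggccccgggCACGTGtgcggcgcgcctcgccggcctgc
UNG: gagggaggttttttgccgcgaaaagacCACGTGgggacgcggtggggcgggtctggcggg
MCM2: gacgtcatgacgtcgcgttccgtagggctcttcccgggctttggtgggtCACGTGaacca
FEN1: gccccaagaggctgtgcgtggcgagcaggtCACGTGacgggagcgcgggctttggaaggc
HK2: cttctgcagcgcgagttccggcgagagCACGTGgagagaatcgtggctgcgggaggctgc
LDHA: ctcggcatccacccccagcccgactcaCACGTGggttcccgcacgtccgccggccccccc
The promoters shown for ODC1, UNG, HK2 and LDHA hold 2 E-boxes each, of which the one nearest before the start is shown. It began 29 bases before the start in ODC1, 47 in UNG, 11 in MCM2, 30 in FEN1, 149 in HK2 and 87 in LDHA. The 6 genes were picked for holding the motif. CAD, NCL, GEMIN4 and RRM2, of the same lists, also fell in MM.1s and KMS18, and no E-box stood in the 300 bases searched in their promoters. Sequence outside these bases was not searched. Another promoter of ODC1, UNG, HK2 and LDHA held none either. Within the MYC target list, the median response in MM.1s and KMS18 was -0.29 both for the 21 genes with the motif and for the 14 without it, and in the RPMI8226 backgrounds -0.14 and -0.07. Over the genes at 5 FPKM the median difference between line groups was -0.05 for 699 genes with it and -0.01 for 4144 without.

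Genes of DNA replication and of entry into S phase lay below their controls in 17 of 30 cases in MM.1s, 26 in KMS18, 13 in RPMI8226 and 22 in the Mcl1 background. In the same order 3342, 3208, 3044 and 3254 of all 5827 genes at 5 FPKM lay below their controls. Of the 30 genes 7 fell in MM.1s and KMS18 (RRM2, UNG, FEN1, MCM2, MCM3, MCM6 and POLA1) and 0 in the RPMI8226 backgrounds, against 10.2% and 3.16% of all genes at 5 FPKM. Of the 30, 12 lay lower in both lines of the first group than in both RPMI8226 backgrounds, against 22.3% of all genes at 5 FPKM. The median changes were -0.06 in MM.1s, -0.29 in KMS18, 0.04 in RPMI8226 and -0.08 in the Mcl1 background. RRM2, a subunit of ribonucleotide reductase, was at 127 FPKM with CD28 shRNA in MM.1s, against 220.5 with Vec and 217 with Gapdh shRNA, and at 80.5 in KMS18, against 119 and 112. In RPMI8226 it was at 45.6 FPKM, against 45.7 and 47.5, and in the Mcl1 background at 74.0, against 90.2 and 85.9. UNG, the uracil-DNA glycosylase, fell in the first group (-0.37, adjusted p = 0.0352), with 0.26 in the second. FEN1, the flap endonuclease, fell by 0.52 on the log2 scale in the first group (adjusted p = 0.00524), with -0.24 in the second, and MCM2, of the replicative helicase, by 0.41 (adjusted p = 0.0303), with -0.07. The 2 controls also differed on this list, with median values of Gapdh shRNA minus Vec of -0.24, -0.17, -0.12 and -0.09 in MM.1s, KMS18, RPMI8226 and the Mcl1 background, and no member passed the test of the difference.

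Genes of G2 and mitosis split the first line group instead of separating it from the second. In MM.1s 21 of 22 lay above their controls, with a median of 0.39, and in KMS18 18 of 22 lay below, with a median of -0.18. In RPMI8226 15 and in the Mcl1 background 11 of 22 lay above, with medians of 0.06 and 0.04. Of all 5827 genes at 5 FPKM, 3342 lay below their controls in MM.1s, 3208 in KMS18, 3044 in RPMI8226 and 3254 in the Mcl1 background. HMMR, a spindle and hyaluronan-binding protein, was at 63.2 FPKM with CD28 shRNA in MM.1s, against 32.1 with Vec and 30.8 with Gapdh shRNA, and at 20.5 in KMS18, against 17.5 and 17.0. It was the only member that rose in the first group as a whole (0.61, SE 0.16, adjusted p = 0.036), and AURKB, the aurora B kinase, the only one that fell (-0.51, SE 0.13, adjusted p = 0.0388). Over all genes at 5 FPKM 4.34% rose and 10.2% fell there. TOP2A, topoisomerase II alpha, had 125 FPKM with CD28 shRNA in MM.1s, against 80.7 and 87.2 in the controls, but 57.3 in KMS18, against 71.4 and 61.3. With 1 library per line and shRNA, the contrast of MM.1s with KMS18 was not tested.

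**Figure D3:**
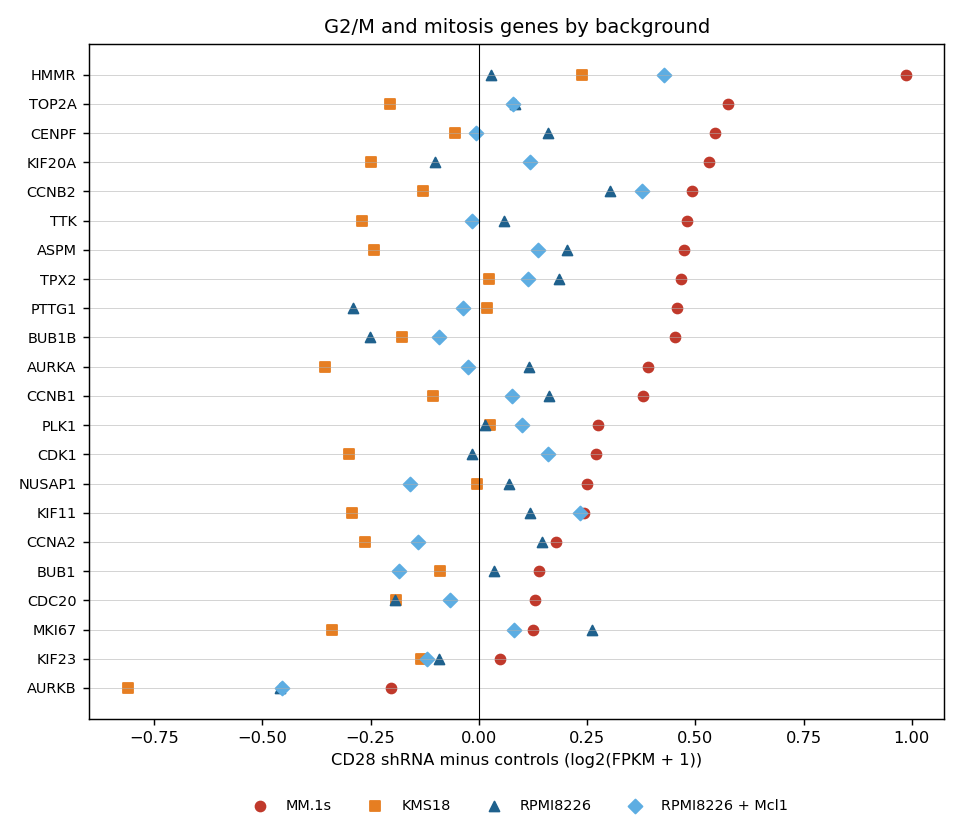
Change with CD28 shRNA against the mean of both controls (difference of log2(FPKM + 1)) of 22 genes of G2 and mitosis in each background, 1 row per gene and 1 symbol per background. The MM.1s symbols lie right of 0 for 21 genes and the KMS18 symbols left of 0 for 18, with those of RPMI8226 and the Mcl1 background mostly between them.

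Among metabolic genes, 3 of 15 glycolysis members fell in MM.1s and KMS18, LDHA (-0.45, lactate dehydrogenase), ALDOA (aldolase) and HK2 (-0.31, hexokinase), and ALDOC, another aldolase, rose, while none passed in the RPMI8226 backgrounds. Over all genes at 5 FPKM 10.2% fell and 4.34% rose in MM.1s and KMS18. HK2 was at 10.1 and 17.2 FPKM with CD28 shRNA in MM.1s and KMS18, against 12.5 to 22.4 in their controls, and at 10.3 and 14.6 in RPMI8226 and the Mcl1 background, against 8.57 to 13.7. It lay below both controls in each line of the first group and above both in each RPMI8226 background, but its difference (-0.48, SE 0.11, adjusted p = 0.24) did not pass. Of 22 genes of cholesterol synthesis 6 rose in MM.1s and KMS18, among them HMGCS1, MVD, MSMO1 and the regulators SREBF1 and SREBF2, and 0 in the RPMI8226 backgrounds, against 4.34% and 0.515% of all genes at 5 FPKM. Their list medians were 0.36 in MM.1s, 0.03 in KMS18, 0.09 in RPMI8226 and 0.21 in the Mcl1 background, so MM.1s was nearer to the Mcl1 background than to KMS18. IDI1, an isomerase of the same pathway, fell in both groups (-0.94 and -0.92).

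Folding factors and chaperones of the endoplasmic reticulum (ER) had mostly more positive responses in the first group than in the second. Of 26 members of the unfolded protein response list, all at 5 FPKM, 24 had a difference above 0 (against 2725 of all 5827 genes), and 12 did not overlap in that direction (46.2%, against 16.9% of all genes at 5 FPKM). The medians were 0.06 and 0.01 in MM.1s and KMS18 and -0.08 and -0.13 in RPMI8226 and the Mcl1 background, and the median difference of 0.18 stayed between 0.14 and 0.21 under all 14 alternatives. HERPUD1, of ER-associated degradation, rose in the first group (0.32, adjusted p = 0.0372), with -0.08 in the second, as did CALR, HYOU1 and DNAJB9, which are chaperones. SDF2L1, an ER chaperone partner, and SEC61A1, the channel of protein entry, fell in both groups, and XBP1, the transcription factor of this response, fell in the first. DERL3, of the same degradation route, fell in the RPMI8226 backgrounds (-0.48, adjusted p = 0.0173), with -0.03 in MM.1s and KMS18. None passed for the difference.

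Interferon response genes leaned the other way. All 10 members at 5 FPKM lay above their controls in RPMI8226 and 9 in the Mcl1 background, against 7 in MM.1s and 5 in KMS18, and the medians were 0.22 in MM.1s, 0.04 in KMS18, 0.59 in RPMI8226 and 0.37 in the Mcl1 background. Of all 5827 genes, 3044 lay below their controls in RPMI8226, 3254 in the Mcl1 background, 3342 in MM.1s and 3208 in KMS18. Of the 10, 2 rose and 1 fell in MM.1s and KMS18, against 4.34% and 10.2% of all genes at 5 FPKM. In the RPMI8226 backgrounds 2 of the 10 rose, against 0.515%. UBE2L6, an enzyme of ISG15 conjugation, rose in both groups (0.31 and 0.38). BST2, a restriction factor at the cell surface, rose in the first group and IFI35, an interferon-induced protein, fell there (-0.35, adjusted p = 0.0359). The median difference of -0.37 was -0.14 without RPMI8226 and -0.57 without the Mcl1 background. ISG15, a ubiquitin-like modifier, was at 85.2 FPKM with CD28 shRNA in RPMI8226, against 31.8 with Vec and 35.5 with Gapdh shRNA, and at 21.1 in the Mcl1 background, against 18.3 and 14.8.

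**Figure D4:**
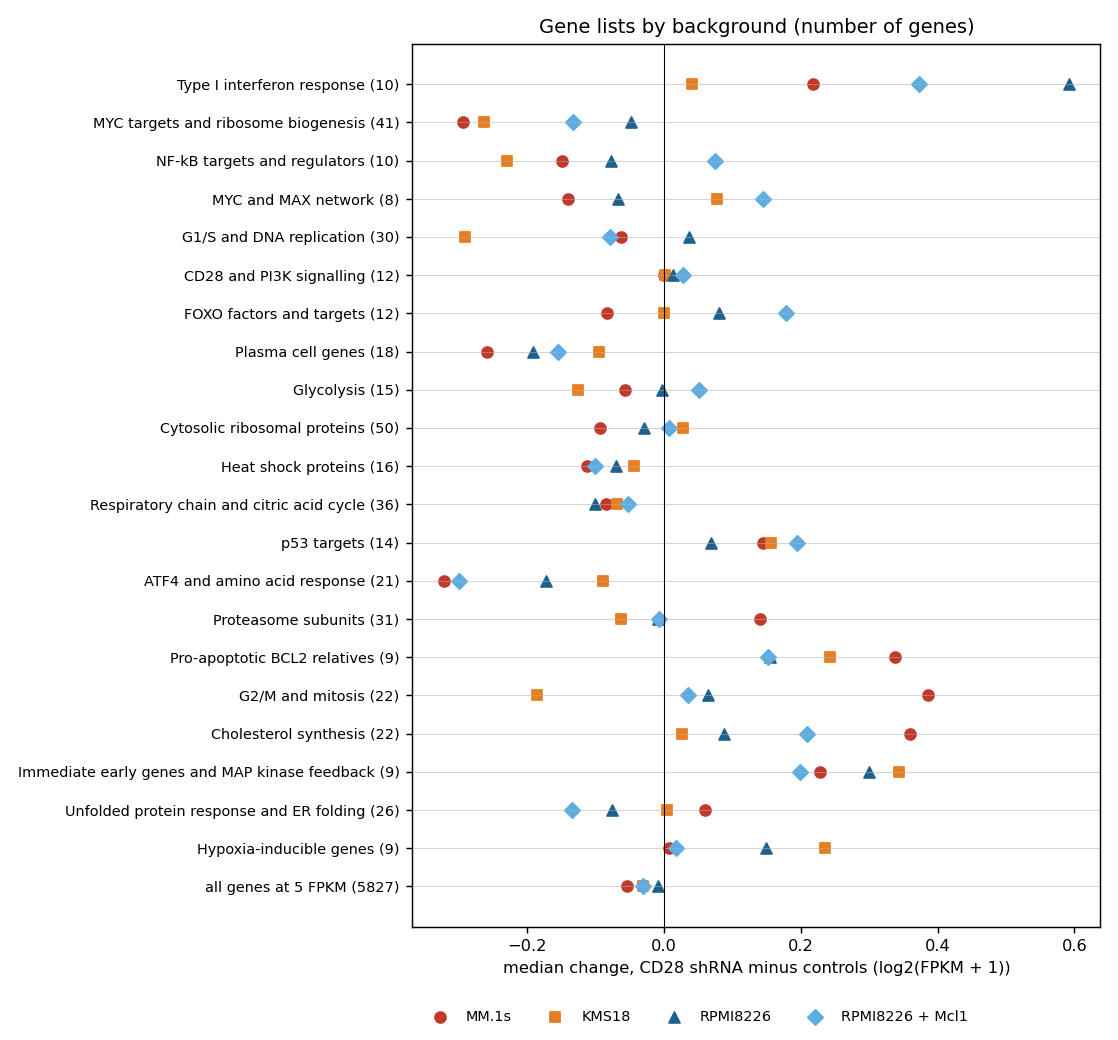
Median change with CD28 shRNA against the mean of both controls (difference of log2(FPKM + 1)) of each gene list with 8 or more members at 5 FPKM, by background, with the number of genes in parentheses and all 5827 genes in the lowest row. The MM.1s and KMS18 symbols lie apart from both RPMI8226 symbols for MYC targets (-0.29 and -0.26 against -0.05 and -0.13), while for G2 and mitosis MM.1s (0.39) and KMS18 (-0.18) lie at opposite ends.

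Part of the response was shared by the line groups. Of 597 genes at 5 FPKM that fell in MM.1s and KMS18, 144 (24.1%) also fell in the RPMI8226 backgrounds and 82.2% had changes below 0 in both of them. Those 144 were 78.3% of the 184 that fell there. Of all 5827 genes 10.2% fell in the first group and 3.16% in the second, and 3044 and 3254 lay below 0 in RPMI8226 and the Mcl1 background. Of 253 that rose in the first group 14 (5.53%) also rose in the second, which was 46.7% of the 30 that rose there. Over all 5827 genes 4.34% rose in the first group and 0.515% in the second. Both groups were called in 1 fit with 1 residual variance per gene, so the overlap of calls is partly built in. Across the 5827 genes the change in MM.1s correlated with that in KMS18 at r 0.49, with RPMI8226 at 0.48 and with the Mcl1 background at 0.50, and the change in KMS18 with RPMI8226 at 0.41 and with the Mcl1 background at 0.49. RPMI8226 and the Mcl1 background had r 0.54. These values are across genes, which are not independent replicates, and the changes share the shRNA and the low depth of the CD28 shRNA libraries. The SD of the changes over genes was 0.346 and 0.303 in MM.1s and KMS18 and 0.239 and 0.267 in RPMI8226 and the Mcl1 background. The SD of Gapdh shRNA minus Vec, which holds no CD28 silencing, was 0.232 and 0.207 in the first group and 0.187 and 0.192 in the second, and was thus also wider in MM.1s and KMS18.

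The largest fall among the named genes that fell in both groups was that of SLC7A5, which carries large neutral amino acids into the cell. It was at 8.47 FPKM with CD28 shRNA in MM.1s, against 46.7 with Vec and 40.2 with Gapdh shRNA, and at 73.4 in KMS18, against 276 and 312. RPMI8226 cells had it at 23.6 FPKM, against 83.4 and 79.9, and in the Mcl1 background at 28.4, against 120.3 and 123. SLC7A5 was left at 19.5% to 28.9% of its control mean, and its difference between the groups was -0.20 (SE 0.14, adjusted p = 0.64). C20orf27 was left at 22.8% to 35.5% and MFSD1, a lysosomal membrane transporter, at 35.7% to 42.0%. TTC3, a ubiquitin ligase, TMEM183A, a membrane protein, and DHRS11, a dehydrogenase, completed the 6 falls that were largest in their weakest background, each with an adjusted p of 0.0111 or less in both groups. Rises chosen in the same way were less even for PON2, a paraoxonase (1.45 in MM.1s and 0.69 to 0.88 in the other backgrounds), and ARL6IP1, an ER membrane protein (1.26 in MM.1s and 0.50 to 0.64 in the others). MYO1D, a myosin, had changes of 0.47 to 0.89, and PLEKHB2, of recycling endosomes, of 0.50 to 0.58.

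Survival and plasma cell genes were also among those without a difference past the threshold. BCL2L1, which encodes BCL-xL, fell in both groups (-0.65, adjusted p = 0.0104, and -0.66, adjusted p = 0.0218), and its estimate was more negative in MM.1s (-0.92) and the Mcl1 background (-0.85) than in KMS18 (-0.38) and RPMI8226 (-0.47). IRF4, on which myeloma cells depend, had the same order, with -0.81 in MM.1s, -0.29 in KMS18, -0.31 in RPMI8226 and -0.66 in the Mcl1 background, and fell in the first group (adjusted p = 0.0161; 0.0566 in the second). PRDM1, which encodes BLIMP1, was at -0.33 in both groups and passed in neither. MCL1 was at -0.04 and 0.04 in MM.1s and KMS18 and at 0.24 and 0.38 in RPMI8226 and the Mcl1 background, with a difference of -0.31 (SE 0.10, adjusted p = 0.345). Its controls averaged 128.9 FPKM in the Mcl1 background, which overexpresses it, against 52.8 in RPMI8226. Introduced and native MCL1 cannot be told apart in these values. The pro-apoptotic BCL2L11 was at -0.27, -0.16, 0.22 and 0.00, with a difference of -0.33 (adjusted p = 0.428), and the pro-apoptotic BID rose in both groups (0.52 and 0.55). ITGB1, the beta-1 integrin, rose in both (0.75 and 0.49). CD86, a ligand of CD28, was at 8.97 FPKM with CD28 shRNA in MM.1s, against 3.18 and 6.46, and at 3.10 in KMS18, between its controls at 2.49 and 3.45. It was at 11.4 FPKM in RPMI8226, against 6.92 and 6.51, and at 12.3 in the Mcl1 background, against 5.80 and 5.46, on 48 to 186 reads per library, and passed in neither group.

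Some genes stood apart in a single background. LGALS1, which encodes galectin-1, was at 69.6 FPKM with CD28 shRNA in KMS18, against 23.6 with Vec and 20.3 with Gapdh shRNA, a change of 1.63, with changes of 0.03, 0.19 and 0.10 in MM.1s, RPMI8226 and the Mcl1 background. The other genes that stood farthest from the 3 remaining backgrounds were the small nucleolar RNAs SNORD78, SNORD35B, SNORD99, SNORA41, SNORD44 and SNORD5, with 0 to 24 reads per library, which does not allow a size to be stated. With 1 library behind each of these changes, they have no replicate check.

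The counts of genes called depend on the controls and on the method. With voom on computed reads 859 genes rose and 744 fell in MM.1s and KMS18, against 470 and 724 here, and 243 rose and 280 fell in the RPMI8226 backgrounds, against 62 and 223 here, so the balance of rises and falls is not settled. With Vec or Gapdh shRNA as the only control, no gene passed for the difference (857 and 647 at an unadjusted p under 0.05).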

How the data were processed

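RNA was isolated with the Qiagen RNeasy kit and sequenced from Illumina TruSeq mRNA libraries, per the labels' protocols. The authors deposited 1 table of FPKM values and exon lengths per gene and library. The same deposited table holds the authors' log2 fold changes, log2 CPM, likelihood-ratio score, p-value and false discovery rate per comparison, not used here. Per the submitters' processing notes, which give no roles, the tools included edgeR 3.12.1, R 3.2.2, TopHat2 2.0.13 and Picard, and the builds mm9, hg19 and GRCh37.

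FPKM times exon length gave whole multiples of 1 read for 100% of values within 0.02, from which reads were computed. Of low read numbers 75.8% to 78.3% were even, so mates of a pair may be counted separately. Depth limits genes with few reads.

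The 11351 genes that averaged 1 FPKM or more over the 12 libraries were fitted with limma 3.58.1 in R 4.3.3 (eBayes with trend) on log2(FPKM + 1), with a term per background and 1 CD28 shRNA effect per line group (6 residual degrees of freedom, from Vec against Gapdh shRNA and from the backgrounds of a group). P-values were two-sided, with Benjamini-Hochberg adjustment over all genes tested and a threshold of 0.05. They measure only the spread between these libraries. Of the 6 residual degrees of freedom 2 come from the backgrounds of a group, and the others are Vec against Gapdh shRNA within a background. Fold changes on this scale understate low genes. An exact permutation of 2 against 2 backgrounds cannot go below 0.333. The fit was also run on simulated reads with known changes, in which the lines of a group did not differ in their response. That run checks the computation and cannot show whether calls hold across lines.

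The line groups, members, lists and the rule for named genes were chosen with earlier results of these data known. Named are CD28, CD86, GAPDH, MYC, MCL1, IRF4, PRDM1, BCL2L1, BCL2L11, ITGB1 and SLC7A5, the largest differences, filled to 5 a direction by p, up to 4 genes per list whose groups do not overlap, the 6 falls and rises largest in their weakest background, and the 2 genes farthest from the rest in each background; further list members named were chosen after their values were seen. Whether counting used strand is not given in the labels, so overlapping genes cannot be told apart. CD86 shRNA libraries were not used.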

Additional observations from a re-analysis of the deposited data

Results flagged for a closer look

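Genes past the threshold of limma's test of the difference between the response in MM.1s and KMS18 and that in the RPMI8226 backgrounds (adjusted p under 0.05) were MYC at -0.67, OAS2 at -1.29, PKIA at -1.39, CDKN1A at 1.30, LGMN at 0.86, FN1 at 1.21, CACNG4 at 1.20, MAL at 1.48, LBH at 1.39 and SNORA63 at 1.99 (log2 response in MM.1s and KMS18 minus that in the RPMI8226 backgrounds). MYC was known to separate the groups when they were formed, so its value is a description. MAL, CACNG4 and PKIA were at 0 in every library of 1 line group and LBH at most at 0.732 FPKM, so their values describe the other group and are no difference between 2 measured responses. With voom on computed reads these 4 did not pass (adjusted p 0.377 to 0.691).

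Among 122 named genes, the change of 1 background stood apart from the other 3 by Dixon's criterion (gap to the nearest over the range) for LGALS1 in KMS18 (1.63), PSMA6, a proteasome subunit, in KMS18 (-0.29), and the small nucleolar RNA SNORA41 in RPMI8226 (1.48, on 1 to 10 reads). Chance passes about 5% of groups, a rate that cannot be read against these 3, since the named genes include some chosen for standing apart in 1 background.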

How the results depend on the processing

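The difference was called for 10 genes here, 6 with a pseudocount of 0.1 FPKM, 5 when only genes at 5 FPKM in the mean control or in each control library were tested, 16 with voom, and 0 with Vec only, with Gapdh shRNA only or with limma on the 4 changes alone (790 at an unadjusted p under 0.05). Leaving out 1 background gave 0 to 12. CDKN1A remained called with pseudocounts of 0.1 and 5, without the low-value filter, under both stricter filters, under median-of-ratios scaling, with voom and without KMS18. Responses in MM.1s and KMS18 numbered 1194, but 172 with Vec only, 3 with Gapdh shRNA only, 115 with the 4 changes alone, and 467 to 863 leaving out 1 background; in the RPMI8226 backgrounds 285, but 3, 1 and 17 under the same 3 settings, 523 with voom, and 11 to 394 leaving out 1 background. These 3 settings hold fewer residual degrees of freedom, and with the 4 changes alone the spread comes only from the backgrounds of a group.

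Of 105 named differences 99 kept their sign under every alternative, a count partly fixed by the choice of genes and settings. Those that reversed were never called: GAPDH (-0.023 with Vec only, -0.56 to 0.69 leaving out 1 background), IRF4 (-0.32 to 0.19), PRDM1 (-0.041 with a pseudocount of 5, -0.021 with Gapdh shRNA only, -0.19 to 0.21), BCL2L1 (-0.022 with Gapdh shRNA only, -0.049 with voom, -0.26 to 0.28), BAD (-0.017 with Vec only) and HSP90AA1 (0.25 here, -0.061 with Vec only). The cause was not tested. Many of the 105 were named because their line groups do not overlap, and for those leaving out 1 background cannot reverse the sign. Dropping the low-value filter, the stricter filters and limma on the changes alone left the estimated differences themselves unchanged. The share that kept its sign is therefore no measure of robustness under these settings. All 39 responses within a group kept their sign, as did 11 of 27 list medians. CD28 shRNA and control libraries are paired by background, a term of the fit; the labels give no replicate numbers to add. The planned count test with edgeR was not run, since the deposited values are FPKM; voom, added after seeing the data, stands in its place.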

Other observations

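Signalling genes not yet described held single changes. NFKB2, a subunit of the alternative NF-kB route, rose in the RPMI8226 backgrounds (0.89, limma adjusted p = 0.0117), with 0.48 in MM.1s and KMS18 (adjusted p = 0.0633) and a difference of -0.41 (adjusted p = 0.527). MAP3K14, the kinase of that route, fell in MM.1s and KMS18 (-0.38, adjusted p = 0.0335), with 0.09 in the RPMI8226 backgrounds, and RELA (-0.28) and the deubiquitinase CYLD (-0.44) fell there too. PDPK1, the kinase that activates AKT, fell in MM.1s and KMS18 (-0.56, adjusted p = 0.01), with -0.27 in the RPMI8226 backgrounds, and VAV1, an exchange factor downstream of CD28, rose (0.51, adjusted p = 0.0376), with 0.25. SPRED2 (0.66), a MAP kinase inhibitor, and the early response factors KLF10 (0.57), KLF6 (0.48) and JUND (0.27) rose in MM.1s and KMS18. Their estimates in the RPMI8226 backgrounds were 0.30, 0.35, 0.31 and 0.16, which passed for none of them. Of 9 members of their list at 5 FPKM 4 rose in the first group, against 4.34% of all genes at that level. In MM.1s 4 of the 9 lay below their controls and in KMS18 3. JUNB, another early response factor of that list, had a negative difference (-0.56). Of these genes none passed the test of the difference.

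In the citric acid cycle SUCLA2, a subunit of succinyl-CoA ligase, fell in both groups (-1.25 and -0.98), and its partner SUCLG2 fell in MM.1s and KMS18 (-0.95, adjusted p = 0.000559), with -0.39 in the RPMI8226 backgrounds (adjusted p = 0.0786) and a difference of -0.56 (adjusted p = 0.26). Of 50 cytosolic ribosomal proteins 2 passed in MM.1s and KMS18, RPS14 lower (-0.29) and RPS20 higher (0.19), and 0 in the RPMI8226 backgrounds. The medians of that list were -0.09, 0.03, -0.03 and 0.01 in MM.1s, KMS18, RPMI8226 and the Mcl1 background, unlike those of the ribosome biogenesis genes. Of 31 proteasome subunits PSMD11 alone passed (-0.26 in MM.1s and KMS18). For comparison with both lists, 4.34% of all genes at 5 FPKM rose and 10.2% fell in MM.1s and KMS18. In the RPMI8226 backgrounds these shares were 0.515% and 3.16%.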
